A study of Sus scrofa with 6 samples.

Results

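The genes described here are 6 pig genes of inflammatory signalling: the cytokines IL6, TNF and IL18, the toll-like receptors TLR2 and TLR4, and NFKBIA, the inhibitor of the transcription factor NF-kappa-B. They are 6 of the 2384 genes that could be named on the array, and each was read through all non-control probes whose design name is one of its RefSeq transcripts, which gave 14 of the 43380 probes kept. IL6 had 3 probes, TNF 2, IL18 2, TLR2 1, TLR4 4 and NFKBIA 2. All 6 genes thus had at least 1 probe. The probes were chosen by name and not by their signal.

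RNA came from femoral arteries of pigs (Sus scrofa), marked in every title as an ex vivo artery and taken where the vessel had been punctured and then closed, and was measured on 6 Agilent arrays of 1 colour. The TAG group holds 3 arrays of arteries closed with TAG, a vascular glue, and the Exoseal group 3 arrays of arteries closed with Exoseal, a marketed vascular closure device. The labels give the left side for every sample and name no strain, age, sex or time after closure, and no unpunctured artery was analysed here. The titles, by which the groups were formed, call 1 array Exoseal replicate 1, but its treatment characteristic says TAG. Per the file headers, the TAG arrays and Exoseal replicate 1 shared a slide (slide 1), and the remaining Exoseal arrays were on slide 2. By the median absolute log2 difference over all probes that array was 0.944 to 1.08 from the TAG arrays and 1.52 and 1.19 from Exoseal replicates 2 and 3, whereas its share of probes above background (60.6%) was near that of Exoseal replicate 3 (61.4%) and above those of the TAG arrays (34.7% to 41.2%). A difference within slide 1 therefore has 1 Exoseal array with conflicting labels on its side and is given for single genes as a value without a test. With slide as a block the fitted difference is this same value, since slide 2 holds no TAG array. A p-value with the block is therefore not a separate check. The labels do not say whether each sample is a different animal, so p-values speak only of the variation among these 6 samples, some of which may be technical.

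Toll-like receptors are membrane sensors of microbial products and of material released by damaged cells, TLR2 mainly of lipoproteins and TLR4 mainly of lipopolysaccharide. Through the adaptor MYD88 and the IKK kinases they lead to the breakdown of the inhibitor encoded by NFKBIA, which otherwise holds NF-kappa-B in the cytoplasm. Freed NF-kappa-B switches on IL6, TNF and NFKBIA itself, so NFKBIA is both a brake on the pathway and one of its targets. IL18 is made as an inactive precursor that is cleaved by caspase-1. In an injured artery these genes can be transcribed by leukocytes and by the smooth muscle, endothelial and adventitial cells of the wall.

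At both IL18 probes every TAG array had a lower signal than every Exoseal array. The probe above background on all Exoseal arrays and 2 of 3 TAG arrays was fitted as 2.62-fold lower in TAG and did not pass (limma adjusted p = 0.0727). That value includes a TAG signal at background and is not a measured fold. The other was above background on the Exoseal arrays alone and at least 3.92-fold lower in TAG at the scaling used. Its call (adjusted p = 0.0320) comes from a probe that was tested only because of its Exoseal signal. NFKBIA was higher in TAG at both probes, by 2.74-fold and 2.44-fold on the scaled signal, with groups that did not overlap and adjusted p-values that missed the threshold (0.113 and 0.0783). In scanner units its groups overlapped and the means of both probes were lower in TAG. IL6 was 2.91-fold lower in TAG at its brightest probe and did not pass (adjusted p = 0.133). The 2 tested TLR4 probes went opposite ways, and the one fitted as higher in TAG passed narrowly, with a signal above background on 1 of 3 TAG arrays. TNF did not pass at either probe, and TLR2 was too dim to be tested. In these bulk samples, fewer cells of a type and less RNA per cell cannot be told apart.

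The arrays differed in brightness before any gene was considered. By the scanner's own flag, 37.4% ± 3.38 of all probes were well above background in TAG and 64.3% ± 5.70 in Exoseal (SD, n = 3 each; exact two-sided permutation p = 0.1, the lowest possible with 3 against 3). The 75th percentile of the signal was 19.3 to 36.4 scanner units in TAG and 61.0 to 151 in Exoseal. Levels are therefore given in scanner units and also as a scaled level, the log2 signal minus the array's own 75th percentile, on which 0 is that percentile. The lowest signal that counted as well above background was 9.19 to 12.8 units on slide 1, and 4.44 and 4.80 units on Exoseal replicates 2 and 3, so a weak spot was called present more readily on the second slide. In limma, which fitted all 22720 probes that were well above background on at least 3 of the 6 arrays, 2443 passed an adjusted p of 0.05 (10.8%), 1604 higher in TAG (7.06%) and 839 lower (3.69%). Of the calls, 65.7% were higher in TAG, against 51.7% under quantile scaling and 46.9% under median scaling, the last of which moved the median log2 difference of all tested probes from 0.08 to -0.39. Groups did not overlap for 36.4% of the tested probes.

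Detection of the 14 probes differed in the same direction as detection over the whole array. Of 42 probe-and-array values per group, 14 were well above background in TAG (33.3%) and 32 in Exoseal (76.2%). Only 3 probes, the brightest of IL6 and both of NFKBIA, were above background on all 6 arrays, and 1 TLR4 probe was above background on no array. Another 7 were above background on no TAG array but on at least 1 Exoseal array. In all, 9 probes could be tested and 5 could not: the single TLR2 probe, 2 of 3 IL6 probes and 2 of 4 TLR4 probes. Among the 9, 2 passed (22.2%, against 10.8% of all tested probes), 1 lower and 1 higher in TAG. The groups did not overlap for 5 of the 9, 2 lower in TAG (16.2% of all tested probes) and 3 higher (20.2%). At 9 probes these shares are given as a description. Of the 9, 3 probes (1 each of IL18, TNF and TLR4) entered the test only through their Exoseal arrays, so each of them had to differ in detection to be tested. Under other settings 2 of the probes passed with the percentile taken over probes detected on all arrays (9.61% of all tested probes), within slide 1 (12.7%, with the lone Exoseal array assumed to vary like the TAG arrays) and with Exoseal replicate 1 counted as TAG (16.7%). A single one passed with quantile scaling (13.9%), in the authors' deposited table tested the same way (12.8%), with slide as a block (8.99%) and with the probes of a gene averaged (9.56%). It was IL18 (A_72_P232887, or the mean of its probes) except with slide as a block, where it was TLR4 A_72_P165431. In the settings where 2 passed, 1 was IL18 A_72_P232887 and the other changed. It was TLR4 A_72_P547391, higher in TAG, with the percentile over probes detected on all arrays. Within slide 1 it was TLR4 A_72_P165431, lower in TAG (log2 difference -2.69). With Exoseal replicate 1 counted as TAG it was TNF A_72_P538206, higher in TAG (1.74). None passed in limma with median scaling (4.62%), with normexp background correction (7.07%) or with the brightest probe per gene (10.3%). At the main setting 6 of the 9 had an unadjusted p under 0.05, as had 31% of all tested probes. Without Exoseal replicate 1, whose labels conflict, 6 passed (34% of all tested probes). Without any 1 of the other 5 arrays, with the replicate number as a block or without the filter on dim probes, none of the 14 and no probe of the array passed in limma, although 4573 to 6426 probes had an unadjusted p under 0.05 with an array left out, 6381 with the block and 14128 without the filter.

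**Figure D1:**
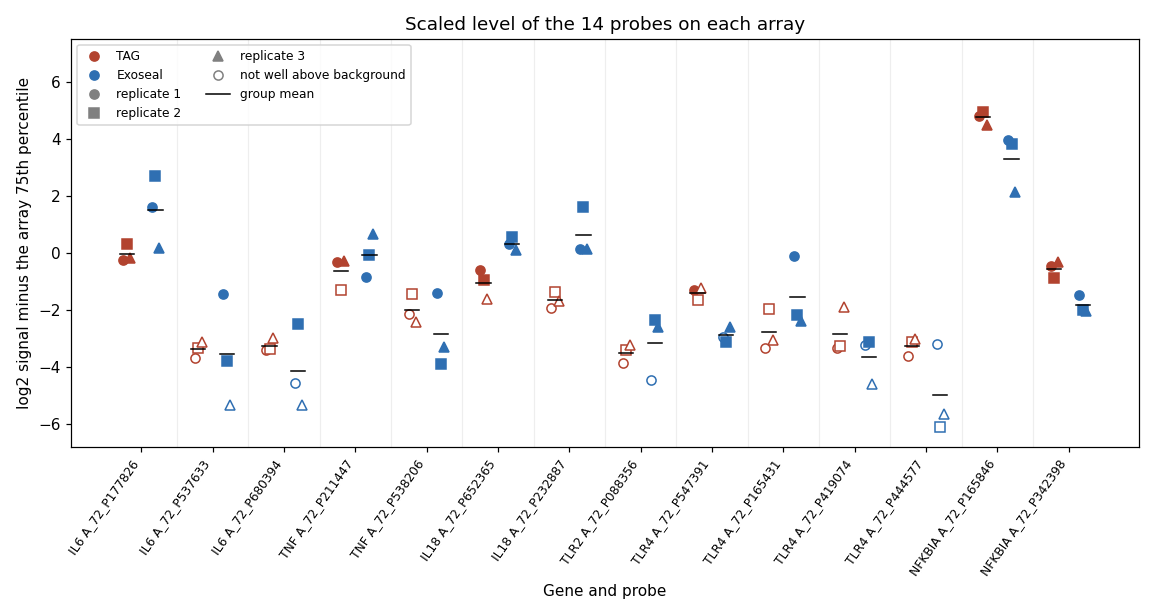
Scaled level (log2 units above the 75th percentile of each array) of the 14 probes, by gene and probe, for the 3 TAG arrays (red) and the 3 Exoseal arrays (blue), with replicates 1, 2 and 3 as circles, squares and triangles. Open symbols are not well above background and black lines are group means. Both IL18 probes lie lower in TAG and both NFKBIA probes higher, with no overlap, whereas the symbols of TLR2 and of most TLR4 probes are open in TAG. Heights of different probes cannot be compared.

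IL18 is the caspase-1 substrate that drives interferon-gamma production. At probe A_72_P232887 the signal was 9.48, 9.89 and 5.95 units on TAG replicates 1, 2 and 3, not well above background on any of them. It was 74.5, 456 and 67.2 units on Exoseal replicates 1, 2 and 3, all well above background. Every Exoseal array thus stood over every TAG array, and Exoseal replicate 2 was the highest. The scaled levels were -1.94, -1.38 and -1.70 in TAG and 0.12, 1.60 and 0.14 in Exoseal (means -1.67 ± 0.28 and 0.62 ± 0.85, SD, n = 3 each). Because the TAG spots give only an upper bound, the difference is given as at least 3.92-fold lower in TAG. The bound was taken against the lowest signal that counted as well above background on each TAG array or the probe's own signal, whichever was higher. It holds for the scaling used and the mean of all 3 Exoseal arrays. Limma's fitted log2 difference was -2.29 ± 0.52 (SE, adjusted p = 0.0320), and the alternative settings gave -2.75 to -0.92.

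The second IL18 probe, A_72_P652365, pointed the same way. Its signal was 23.7, 13.1 and 6.24 units in TAG, the last of them not well above background, and 84.6, 221 and 64.8 units in Exoseal. The groups again did not overlap, and in scanner units Exoseal replicate 2 was the highest at both probes, followed by replicate 1 and then replicate 3. The fitted log2 difference was -1.39 ± 0.45 (SE, 95% confidence interval -2.39 to -0.39), which did not pass in limma (adjusted p = 0.0727). With the 2 probes averaged into 1 value the difference was -1.84 and passed (adjusted p = 0.0396), a value that includes the TAG signals at background. Against Exoseal replicate 1 alone, on the slide that holds both groups, the log2 differences were -1.79 at A_72_P232887 and -1.38 at A_72_P652365. With slide as a block, which sets the same array against TAG, A_72_P232887 did not pass (limma adjusted p = 0.0858). Its call was lost without TAG replicate 1, 2 or 3 (log2 differences -2.16, -2.44 and -2.28, adjusted p = 0.114, 0.101 and 0.133) and without Exoseal replicate 2 or 3 (-1.80 and -2.53, 0.0544 and 0.0909). It was kept without Exoseal replicate 1 (-2.54, 0.00147).

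IL6, an NF-kappa-B target that drives the acute phase response, was measurable at 1 of its 3 probes. At A_72_P177826 the signal was 30.2, 31.6 and 16.8 units in TAG and 205, 965 and 68.8 units in Exoseal, well above background on all 6 arrays. In scanner units all Exoseal arrays were above all TAG arrays, but after scaling the groups overlapped. The scaled levels were -0.27, 0.29 and -0.20 in TAG (mean -0.06 ± 0.31, SD, n = 3) and 1.59, 2.68 and 0.17 in Exoseal (mean 1.48 ± 1.26, SD, n = 3), so Exoseal replicate 3 lay below TAG replicate 2. Most of the spread was thus among the Exoseal arrays. The log2 difference was -1.54 ± 0.63 (SE, 95% confidence interval -2.95 to -0.13, limma adjusted p = 0.133). Within slide 1 it was -1.65, without Exoseal replicate 2 it was -0.94, and without Exoseal replicate 3 it was -2.19 (adjusted p = 0.276 and 0.0958). Averaged with its dim probes, IL6 had -0.17 (adjusted p = 0.881).

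The other IL6 probes were at background in TAG. A_72_P537633 read 2.21 to 2.81 units in TAG and 24.9, 10.9 and 1.49 units in Exoseal, and was well above background on Exoseal replicates 1 and 2. A_72_P680394 read 2.44 to 3.39 units in TAG and 2.87, 26.4 and 1.499 units in Exoseal, well above background on replicate 2 alone. The 3 probes shared a detected signal on Exoseal replicate 2. On Exoseal replicate 3, the dimmest IL6 array of that group at each probe, only A_72_P177826 was detected.

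TNF, the cytokine that signals through TNFRSF1A and TNFRSF1B, did not separate the groups. A_72_P211447 read 29.2, 10.4 and 15.8 units in TAG and 37.8, 141 and 97.1 units in Exoseal, and was well above background on 5 of the 6 arrays, with TAG replicate 2 the exception. In scanner units the groups did not overlap, but scaled levels ran from -1.31 to -0.29 in TAG and from -0.86 to 0.67 in Exoseal. The log2 difference was -0.54 ± 0.53 (SE, 95% confidence interval -1.75 to 0.66, limma adjusted p = 0.530), and within slide 1 it was 0.22. A_72_P538206 read 8.18, 9.48 and 3.59 units in TAG, none of them well above background, and 25.8, 10.1 and 6.22 units in Exoseal, all of them well above background. The 9.48 units of TAG replicate 2 were thus not well above background on slide 1, whereas the 6.22 units of Exoseal replicate 3 were on slide 2. No fold is given for this probe, since the Exoseal mean did not exceed the TAG bound (scaled means -2.01 ± 0.51 in TAG and -2.87 ± 1.30 in Exoseal, SD, n = 3, limma adjusted p = 0.410). Its fitted log2 difference was 0.86 in all 6 arrays, -0.60 within slide 1 and 1.59 without Exoseal replicate 1, the last of which passed (adjusted p = 0.0189). With that array counted as TAG the difference was 1.74 and also passed in limma (adjusted p = 0.0400).

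**Figure D2:**
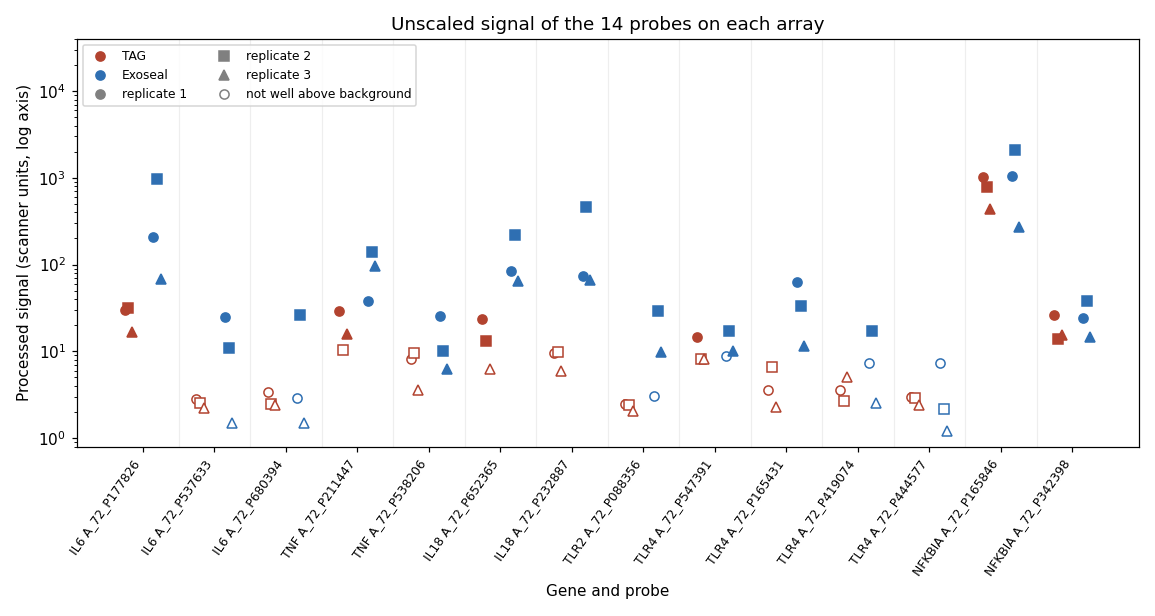
Unscaled processed signal in scanner units, on a log axis, of the same 14 probes on the 3 TAG arrays (red) and the 3 Exoseal arrays (blue), with open symbols for spots not well above background. IL6 A_72_P177826 and both IL18 probes are higher on each Exoseal array than on each TAG array, whereas the signals of both NFKBIA probes and of TLR4 A_72_P547391 overlap between the groups.

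TLR2 had a single probe, A_72_P088356, and it was well above background only on slide 2. It read 2.51, 2.42 and 2.03 units in TAG, 3.09 units on Exoseal replicate 1, and 29.1 and 9.95 units on Exoseal replicates 2 and 3. On the slide that held both groups it was above background on none of the 4 arrays. The groups did not overlap in scanner units, but on the scaled level Exoseal replicate 1 was the lowest of all 6 arrays (-4.47, against -3.86 to -3.24 in TAG). With 2 arrays above background the probe was below the minimum of 3 and was not tested.

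TLR4, the lipopolysaccharide receptor, had 4 probes that differed from each other. A_72_P547391 read 14.5, 8.19 and 8.22 units in TAG and 8.91, 17.4 and 9.98 units in Exoseal. It was well above background on 1 TAG array (replicate 1) and on Exoseal replicates 2 and 3. The signals overlapped, and it was the scaling to each array's 75th percentile that set TAG (-1.32, -1.65 and -1.23) above Exoseal (-2.94, -3.12 and -2.61) on all arrays. The fitted log2 difference was 1.49 ± 0.41 (SE, 95% confidence interval 0.56 to 2.42), which passed narrowly in limma (adjusted p = 0.0498). Because TAG replicates 2 and 3 and Exoseal replicate 1 were not well above background, their levels are upper bounds, and the fitted difference is not a measured fold. With quantile scaling it was 1.15 and with median scaling 1.03, and neither passed (adjusted p = 0.142 and 0.207). Within slide 1 it was 1.54. It passed without Exoseal replicate 1 (1.46, adjusted p = 0.0215) but not without TAG replicate 1, 2 or 3 (0.167, 0.132 and 0.200) or Exoseal replicate 2 or 3 (0.0810 and 0.107).

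The second tested TLR4 probe, A_72_P165431, was lower in TAG in scanner units. It read 3.55, 6.57 and 2.30 units in TAG, none of them well above background, and 63.5, 33.4 and 11.6 units in Exoseal, all of them well above background. The scaled levels overlapped, at -3.36, -1.97 and -3.07 in TAG and -0.11, -2.17 and -2.40 in Exoseal. At the scaling used the Exoseal mean did not exceed the TAG bound, so no fold is given (scaled means -2.80 ± 0.73 and -1.56 ± 1.26, SD, n = 3, limma adjusted p = 0.247). The fitted difference, which rests on TAG signals at background, was -1.24 over all 6 arrays and -0.51 without Exoseal replicate 1 (adjusted p = 0.453). With slide as a block, where that array is the only Exoseal array set against TAG, it was -2.69 and passed (adjusted p = 0.0207). The other TLR4 probes were near background. A_72_P419074 was above background on Exoseal replicate 2 alone, at 17.0 units, and read 2.52 to 7.33 units elsewhere, and A_72_P444577 read 1.21 to 7.39 units and was above background on no array. The files give no probe sequence or position, so whether the TLR4 probes read different transcripts was not tested.

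NFKBIA, the inhibitor that is itself an NF-kappa-B target, was above background on all 6 arrays at both probes. A_72_P165846 read 1018, 790 and 434 units in TAG and 1060, 2095 and 268 units in Exoseal, so the unscaled signals overlapped. Their mean was lower in TAG (747 units, against 1141 in Exoseal), and it was the scaling that set TAG above Exoseal. The scaled levels were 4.81, 4.94 and 4.49 in TAG (mean 4.75 ± 0.23, SD, n = 3) and 3.95, 3.80 and 2.14 in Exoseal (mean 3.30 ± 1.01, SD, n = 3). The groups did not overlap on this scale, and Exoseal replicate 3 stood lowest. The log2 difference was 1.45 ± 0.55 (SE, 95% confidence interval 0.21 to 2.70, limma adjusted p = 0.113).

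The dimmer NFKBIA probe, A_72_P342398, gave a similar difference. It read 26.4, 13.7 and 15.5 units in TAG and 24.4, 37.8 and 14.6 units in Exoseal, again with overlap and a lower mean in TAG (18.5 against 25.6 units). Its scaled levels were -0.46, -0.90 and -0.31 in TAG and -1.49, -1.99 and -2.06 in Exoseal, which did not overlap. The log2 difference was 1.29 ± 0.42 (SE, 95% confidence interval 0.33 to 2.25, limma adjusted p = 0.0783). Within slide 1 the 2 probes had 0.79 and 0.93, and without Exoseal replicate 3 A_72_P165846 had 0.87. Without Exoseal replicate 1 both passed, at 1.78 and 1.47 (adjusted p = 0.0160 and 0.0206). When only the 12887 probes above background on all 6 arrays were tested, of which 16.4% passed, A_72_P342398 passed (adjusted p = 0.0489) and A_72_P165846 did not (0.0777).

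**Figure D3:**
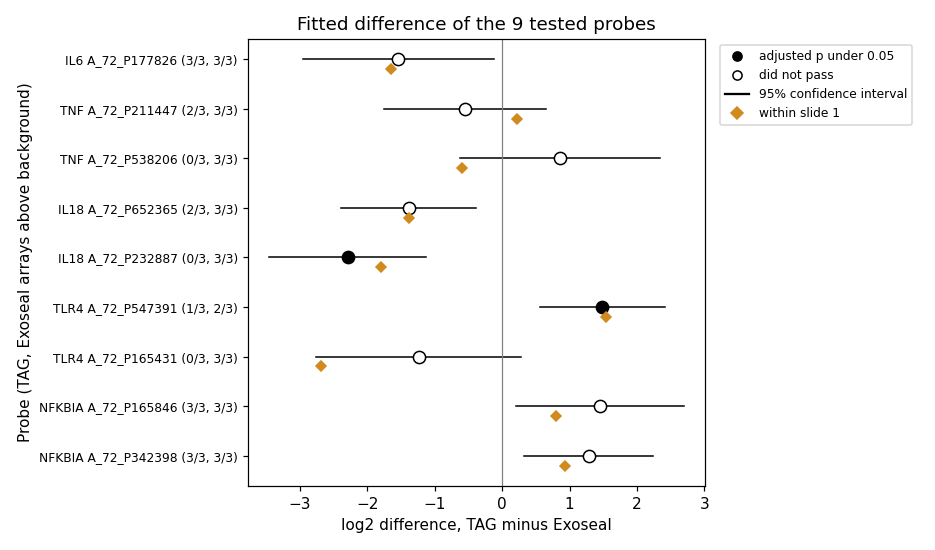
Fitted log2 difference, TAG minus Exoseal, of the 9 tested probes with its 95% confidence interval (black bars), and the same difference within slide 1 against Exoseal replicate 1 alone (orange diamonds). Each label gives how many of the 3 TAG and 3 Exoseal arrays were well above background, and filled circles passed an adjusted p of 0.05 in limma. IL18 A_72_P232887 (0 of 3 TAG arrays above background) and TLR4 A_72_P547391 (1 of 3) passed, the TNF probes change sign within slide 1, and for the probes with 0 of 3 TAG arrays the fitted value is not a measured fold.

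The rank of a probe within its own array was also taken. For spots not well above background, among them all TAG spots of IL18 A_72_P232887 and TLR4 A_72_P165431, the rank is that of a background reading. IL18 A_72_P232887 stood at the 50.4th to 59.2nd percentile of all probes in TAG and at the 76.1st to 85.0th in Exoseal, and A_72_P652365 at the 53.2nd to 68.3rd and the 75.7th to 78.7th. NFKBIA A_72_P165846 stood at the 96.7th to 97.1st percentile in TAG and the 88.4th to 95.8th in Exoseal, and A_72_P342398 at the 65.4th to 71.4th and the 53.9th to 59.2nd. IL6 A_72_P177826 stood at the 72.3rd to 77.6th percentile in TAG and at the 76.3rd to 90.5th in Exoseal, with overlap. TLR4 A_72_P165431, at the 21.1st to 51.0th percentile in TAG and the 52.3rd to 73.9th in Exoseal, went the other way from A_72_P547391, at the 55.6th to 59.2nd and the 29.9th to 49.9th. The ranks of the IL18, NFKBIA and these TLR4 probes did not overlap between the groups. The same held for 3 untested probes that were at background on every TAG array: TLR2 A_72_P088356, at the 1.07th to 6.04th percentile in TAG and the 17.0th to 55.6th in Exoseal, IL6 A_72_P537633, lower in TAG, and TLR4 A_72_P444577, higher in TAG and at background on all 6 arrays. In the authors' deposited table, the values of both IL18 probes and of TLR4 A_72_P165431 were likewise lower on every TAG array than on every Exoseal array. Those of both NFKBIA probes and of TLR4 A_72_P547391 were higher on every TAG array. There, 17 of the 42 TAG values and 5 of the 42 Exoseal values of the 14 probes sat at the lowest value of their column, among them all 3 TAG values of TLR2. How many of all probes separate by rank or in the authors' table was not counted, so these separations are given as a description. On the scaled level the groups did not overlap for 36.4% of all tested probes.

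Markers of other cells differed between the same arrays, and most lists held members with differences of both signs. The level of a list is the sum of its signals, each over the array's 75th percentile. Of 11 macrophage and monocyte markers 8 were tested, and LYZ, AIF1 and CD86 fell in TAG. The list summed to 16.2 to 23.9 in TAG and 46.7 to 86.1 in Exoseal. On the Exoseal arrays LYZ and AIF1 made up most of this (37.9 to 67.9, against 7.69 to 10.0 in TAG). The other 6 summed to 7.21 to 13.9 in TAG and 8.75 to 18.2 in Exoseal. CD163 had a log2 difference of 0.10, and C1QA, which did not overlap between the groups, had 0.68. Of 9 neutrophil markers 4 were tested. MMP9 and ARG1 fell, the latter from a signal not above background in TAG, and they carried the list's sum (3.502 to 4.83 in TAG, 10.0 to 28.8 in Exoseal). These falls were at the brightest probes, and a second tested probe had -0.23 for MMP9 and -1.60 for ARG1. The granulocyte genes S100A12 and S100A8 had 1.72 and 0.38 (adjusted p = 0.0782 and 0.584), and S100A9 was above background on 1 array only.

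The T cell markers CD3E, CD3D, CD3G and CD2 were above background on no TAG array and CD4 on no array, whereas CD8A was above background on all 6 (log2 difference 1.05, adjusted p = 0.148) and GZMB on the 3 Exoseal arrays alone. A second tested probe had a log2 difference of -0.49 for CD8A and 0.04 for GZMB. The T and NK cell list summed to 1.74 to 1.88 in TAG and 0.701 to 2.71 in Exoseal. Of the smooth muscle markers ACTA2 and DES rose, CNN1 had 0.73 and MYLK had -1.37 (adjusted p = 0.249 and 0.136). Their sum was 448 to 527 in TAG and 247 to 274 in Exoseal, mostly from CNN1 and DES. ACTA2, CNN1 and DES, and the endothelial markers PECAM1 and CDH5, were above background on all 6 arrays, as for an artery wall. CDH5 fell, while PECAM1 had -1.57 at its brightest probe (adjusted p = 0.163) and 2.40 at a second probe. Of 7 skeletal muscle markers ACTA1 rose. The list summed to 57.0 to 68.7 in TAG and 20.4 to 35.3 in Exoseal. ACTA1 made up 47.4 to 55.9 of this in TAG and 7.79 to 10.6 in Exoseal. The other 6 summed to 9.21 to 12.8 in TAG and 9.84 to 26.3 in Exoseal, and the list's median log2 difference was -0.70. The rise was at the brightest ACTA1 probe, and its 15 other tested probes had log2 differences from -1.94 to 2.37. The 5 adipocyte markers summed to 80.8 to 92.5 and 81.5 to 122, and none of the 3 tested had an unadjusted p under 0.05 in limma. DCN was the 1 fibroblast marker measured and had 0.91 (adjusted p = 0.161). The part of these cells in the IL18, IL6 and NFKBIA values was not tested.

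The rest of the pathway showed few calls. Of 102 further genes of toll-like receptor, cytokine and NF-kappa-B signalling, 64 had a named probe and 43 could be tested by their brightest probe. Of these, 2 rose in TAG and none fell (4.65%, against 8.74% of 1614 named genes by their brightest probe, 5.7% higher and 3.04% lower in TAG). At an unadjusted p under 0.05 in limma 5 were higher and 4 lower (20.9%, against 27.5% of the named genes), and 8 of the 43 had groups that did not overlap (18.6%, against 34.9%). The median log2 difference of the 43 was 0.02, against 0.11 over the named genes, and -0.64 within slide 1, where the median of all tested probes was -0.09. Of the 64 measured genes, 28 were above background on no TAG array, among them NFKB1 (an NF-kappa-B subunit), RELA (another subunit), IL1A (interleukin 1 alpha) and MYD88, the last on no array at all.

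TBK1, a kinase of interferon induction downstream of TLR3 and TLR4, rose by 1.52 ± 0.41 on the log2 scale (SE, limma adjusted p = 0.0455), with scaled levels of -1.11, -0.77 and -0.80 in TAG and -2.56, -2.15 and -2.54 in Exoseal. TLR9, the endosomal receptor of unmethylated DNA, rose by 2.40 ± 0.62 (adjusted p = 0.0431), but was above background on 1 TAG array and 2 Exoseal arrays. Within slide 1 TBK1 had 1.67 and TLR9 0.94. With slide as a block, which sets the same lone Exoseal array against TAG, neither passed (limma adjusted p = 0.0745 and 0.293). Neither passed with median scaling or when any TAG array or Exoseal replicate 2 or 3 was left out, settings in which no pathway gene passed. Among the remaining receptors TLR7, an endosomal sensor of RNA, had the smallest p, with a log2 difference of -1.74 ± 0.59 (adjusted p = 0.0827).

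Among the ligands, the NF-kappa-B and IKK genes, the inhibitors and the targets no gene passed in limma, and 3 were higher and 2 lower in TAG at an unadjusted p under 0.05. Of 8 cytokine ligands the smallest p-values were those of TNFSF10, the death ligand TRAIL, at 1.90 ± 0.75, and IL1B, interleukin 1 beta, at -1.63 ± 0.70 (adjusted p = 0.124 and 0.149). IL1B scaled levels were -1.15 to -0.46 in TAG and -0.37 to 2.49 in Exoseal, with Exoseal replicate 2 highest as for IL6 and IL18. Of 5 adaptors, kinases and inflammasome genes IRAK4, a kinase recruited by MYD88, had -1.21 ± 0.54 (0.164). The list of NF-kappa-B and IKK genes also held STAT3, the transcription factor downstream of IL6, which is neither. Of the 3 genes tested from that list STAT3 had -0.92 ± 0.57 and IKBKG, the regulatory subunit of IKK, had 0.53 ± 0.57 (0.302 and 0.572). A second STAT3 probe had 1.43. The feedback inhibitor SOCS3 had -0.93 ± 0.61 and TNFAIP6, a hyaluronan-binding protein induced by TNF, had -0.83 ± 0.56 (0.334 and 0.346), with 2.12 at a second TNFAIP6 probe. Of 15 target genes CCL5 and CCL2, chemokines for T cells and for monocytes, had 1.71 ± 0.57 and -1.55 ± 0.52 (0.0791 and 0.0824), both without overlap between the groups. A second CCL2 probe had 0.67.

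**Figure D4:**
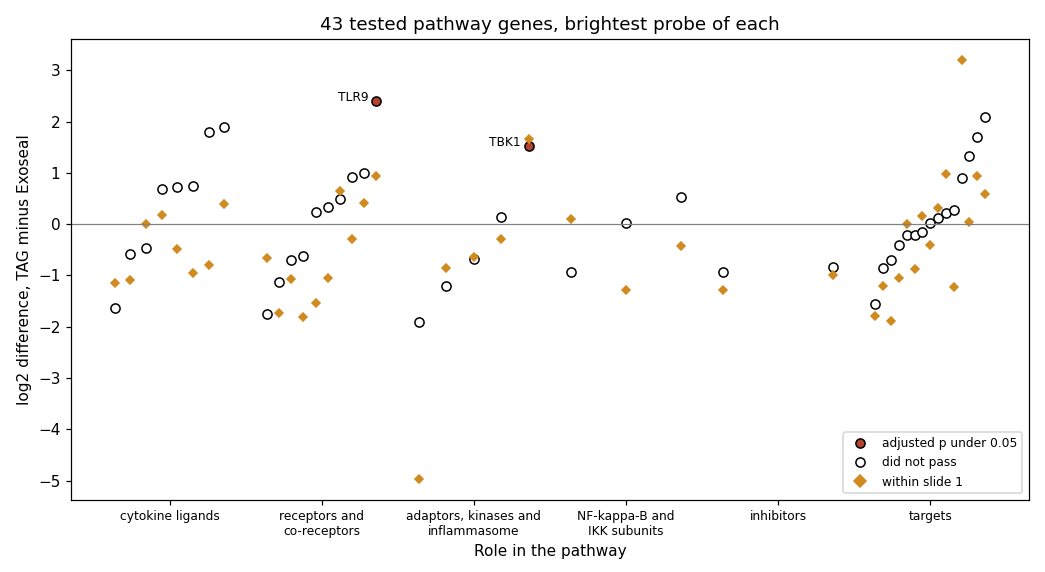
Log2 difference, TAG minus Exoseal, of the 43 tested pathway genes by role, each by its brightest probe (circles, filled where the adjusted p was under 0.05), and the same within slide 1 (orange diamonds). TLR9 and TBK1 are the 2 genes that passed, and most diamonds lie below their circle. For the 7 genes above background on no TAG array the fitted value is not a measured fold.

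The named genes whose scaled levels over the 6 arrays were most like those of each member were taken from 1077 genes above background on all arrays, by Pearson's r to the member's brightest probe. Since the arrays fall into the 2 groups and share their scaling, r is given as a description of the 6 arrays. Nearest to IL6 were PRELID3B (0.991), BCL2A1 (0.986) and TAF11 (0.972). For IL18 they were COX6B (0.990), PFDN4 (0.972) and SLC7A7 (0.966). TNF was closest to SLC44A4 (0.982), TGFB3 (0.959) and SLPI (0.952). The TLR4 probe A_72_P547391 was closest to CLN3 (0.989), the muscle filament gene DES (0.978) and IRF9 (0.976). NFKBIA was closest to RGS2 (0.987), TNNC1 (0.978) and FOLH1B (0.974).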

How the data were processed

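The values are spot intensity readings that the authors deposited as scanner files, made per the file headers with Agilent Feature Extraction 11.0.1.1, which subtracted background within each array and did not scale between arrays. A deposited table holds the authors' processed values on a log2 scale. Its 6 columns share their median (3.40), 75th percentile (5.59) and highest value (15.6), and how the authors scaled them is not stated there.

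Of 45220 spots per array 1417 controls were left out. Replicate spots without outlier flags were averaged per probe as log2 signals, and 223 of 43603 probes were left out because every spot was an outlier on some array. No spot was saturated. Each array's 75th percentile was subtracted. Probes were named by unversioned RefSeq transcript through a gene table of assembly Sscrofa11.1, used for names only, and 5435 probes (2384 genes) were named. No coordinates or sequences are given, as none of the sources used here gives the design's build.

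Each probe was tested by itself with limma 3.58.1 in R 4.3.3 (two-sided, TAG minus Exoseal, Benjamini-Hochberg over all 22720 tested probes, threshold 0.05), a step tested on simulated data. In that simulation, with 200 of 22720 probes changed, 0% of log2 changes of 1 or 2 were recovered and 46.6% of those of 3. With so few changed probes the adjustment is stricter than in the data, where 2443 passed, so these shares do not give the recovery there. A probe that did not pass is still not shown to be unchanged. The number of arrays limits the precision. The normexp alternative used median spot signals, as the files hold no mean signal, and was chosen after seeing the data. No pair of arrays held identical values (median absolute log2 differences 0.329 to 1.75).

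Named are all probes of the 6 genes, pathway genes that passed, the 2 genes of smallest p per role, and the 3 genes most alike to each member. Members and lists were chosen with earlier results of these data known. Description texts shared by all samples concern another experiment and were not used.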

Additional observations from a re-analysis of the deposited data

How the results depend on the processing

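Over all probes 2443 passed in limma, and 1049 with median scaling, 1607 with normexp and quantile normalisation, 3788 with Exoseal replicate 1 counted as TAG and 0 of 43380 without the filter on dim probes (14128 at an unadjusted p under 0.05). Of the 14 probes 2 passed, and 0 with median scaling, with normexp, or without the filter, and 1 with quantile scaling, in the authors' table, among probes detected on all arrays, with slide as a block, or with the mean of each gene's probes, and 0 with 1 probe per gene. The 1 that passed was IL18, except with slide as a block (TLR4 A_72_P165431) and among probes detected on all arrays (NFKBIA A_72_P342398). Of the pathway genes 2 passed, and 0 with median scaling, with normexp, without the filter or among probes detected on all arrays, 1 in the authors' table, 6 within slide 1 and 8 with Exoseal replicate 1 counted as TAG. Leaving out 1 array at a time gave 0 to 7715 calls over all probes (up to 34% of those tested). It gave 0 to 6 of the 14 probes and 0 to 13 of the 43 pathway genes. The highest counts each came without Exoseal replicate 1, and 0 came without any other array (4573 to 6426 probes at an unadjusted p under 0.05 in limma). The replicate numbers of the titles did not pair the arrays (correlations of deviations between arrays of the same number -0.18, 0.09 and -0.07), and with the replicate block 0 probes, 0 of the 14 and 0 pathway genes passed (6381 probes at an unadjusted p under 0.05). Signs turned for both TNF probes and 1 TLR4 probe. TNF A_72_P211447 had 0.22 within slide 1 and with slide as a block, and 0.16 as the mean of both probes, TNF A_72_P538206 had -0.60 within slide 1 and with the block, and TLR4 A_72_P165431 had 0.16 with Exoseal replicate 1 counted as TAG. The cause was not tested. Both IL18 probes, IL6 A_72_P177826, both NFKBIA probes and TLR4 A_72_P547391 kept their direction under every alternative run. The dim IL6 probes A_72_P537633 and A_72_P680394 were not tested, and their scaled differences had the opposite sign (0.15 and 0.88). IL18 A_72_P232887 passed in 6 of 16 alternatives (adjusted p 0.00147 to 0.133) and TLR4 A_72_P547391 in 2 of 18 (0.0215 to 0.389). The difference in the share of probes above background, -26.9 percentage points, was -28.8 to -23.6 with 1 array left out, -18.7 with the laxer flag for positive and significant signal and -22.9 with Exoseal replicate 1 counted as TAG. Signal over background limits TLR2, TLR4, TNF, the dim IL6 probes and, in TAG, IL18, most of all on slide 1.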
